A study of Homo sapiens with 10 samples.

Results

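The clustered protocadherins are 53 protein-coding genes whose symbols begin with PCDHA, PCDHB or PCDHG, of 19974 protein-coding genes on chromosomes 1 to 22 and X in the RefSeq table used. They comprise 15 α, 16 β and 22 γ genes. The genes span chr5:140786140-141512975 in GRCh38, and with 50 kb on each side the window examined was 827 kb long. Peaks were mapped by chromatin immunoprecipitation followed by sequencing (ChIP-seq) in Kelly cells, a neuroblastoma line with amplified MYCN, in 10 libraries that form 5 groups of 2. The groups were induced FLAG-RCOR2 (RCOR2-3xF cells given 2 µg/mL doxycycline, anti-FLAG antibody), RCOR1 and RCOR3 (untreated Kelly cells, each with its own antibody), LSD1 (untreated Kelly-shRUNX1T1 cells, a derivative named for a hairpin against RUNX1T1) and uninduced FLAG (RCOR2-3xF cells without doxycycline, same anti-FLAG antibody). All 10 libraries are labelled 48 h. RCOR2 was thus measured as a tagged, induced protein and LSD1 in another Kelly derivative, so protein, cell derivative and antibody cannot be told apart between these groups. The labels do not say that replicates were separate cultures, so the p-values below may measure technical spread. The lists hold peak positions and no RNA levels, so neither the expression of these genes nor that of neuroblastoma markers was measured.

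Clustered protocadherins are cadherin-like adhesion proteins that let neurons tell their own branches from those of other cells. In the α and γ subclusters every variable exon has its own promoter and encodes a whole extracellular region and membrane span, and it is spliced to constant exons shared by the subcluster. The β genes are single coding exons without constant exons. Most promoters are chosen at random in a given neuron, with CTCF and cohesin bringing a chosen promoter to a distant enhancer, while the C-type genes (PCDHAC1, PCDHAC2, PCDHGC3, PCDHGC4 and PCDHGC5) are used more evenly. RCOR1, RCOR2 and RCOR3 are corepressors of the CoREST family, which couple LSD1 to the neuronal repressor REST. In mice REST has been linked to repression of the α subcluster.

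Induced FLAG-RCOR2 was found along all 3 subclusters, and the other groups had few peaks there. The induced libraries had 76 and 76 peaks in the window, the RCOR1 libraries 17 and 5, the RCOR3 libraries 4 and 4, the LSD1 libraries 6 and 3, and the uninduced FLAG libraries 3 and 0. Both induced libraries thus lay above all 8 others. Merging the peaks of all 10 lists gave 91 distinct regions, of which 87 held an induced peak in at least 1 library. A region found by both libraries of a group, called a shared region here, was counted 60 times for induced FLAG-RCOR2, 4 times for RCOR1, 3 times for LSD1, 1 time for RCOR3 and 0 times for uninduced FLAG.

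**Figure D1:**
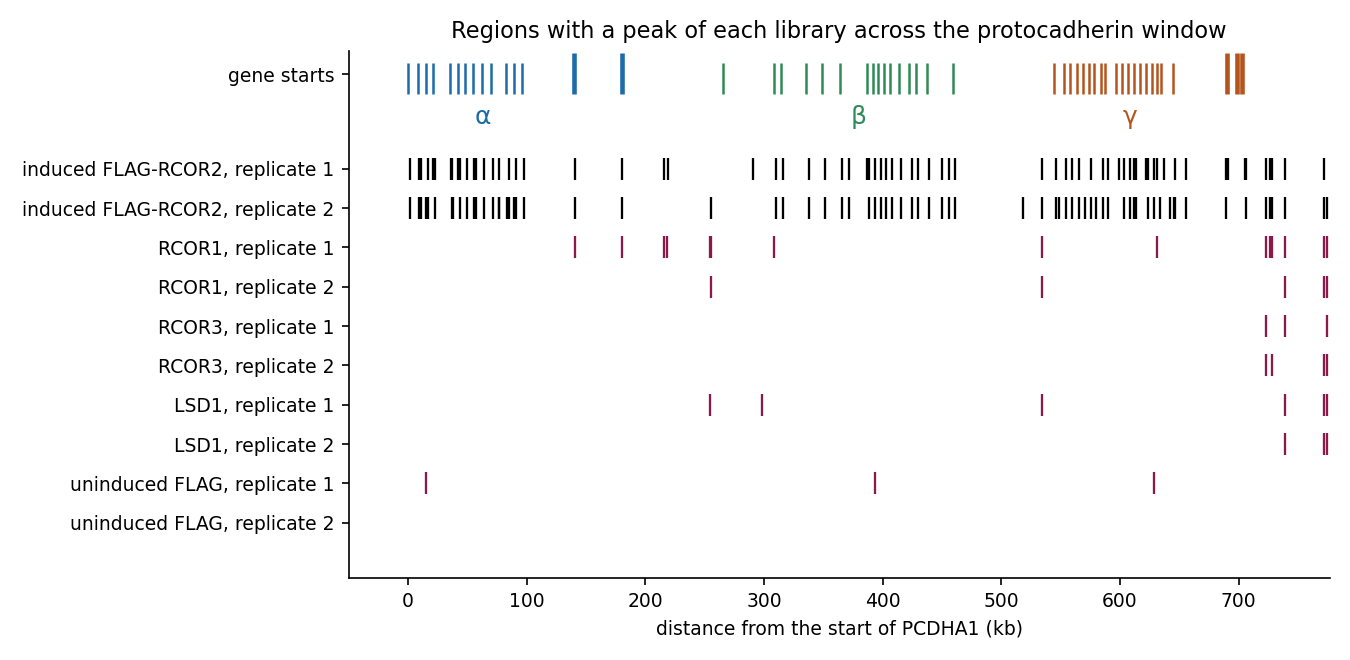
Merged regions with a peak of each library (ticks) by distance from the start of PCDHA1 in kb, with gene starts of the α, β and γ subclusters on top (taller ticks are C-type genes). The induced libraries (black) follow the gene starts with 73 and 74 of the 91 regions, while the RCOR1, RCOR3 and LSD1 libraries share regions at the right-hand end and RCOR1 replicate 1 also has scattered ones.

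Because the lists differ in length, the peaks in the window were also set against all peaks of a library. They came to 11.4 ± 1.89 per 10000 peaks for induced FLAG-RCOR2, 3.09 ± 0.508 for RCOR1, 2.19 ± 1.06 for RCOR3 and 2.31 ± 1.11 for LSD1 (SD, n = 2 each), against 1.46 ± 2.07 for uninduced FLAG (SD, n = 2). The difference among the 4 proteins did not pass the test (F = 25.6, one-sided exact permutation p = 0.0762, 0.152 after Benjamini-Hochberg adjustment over the 2 tests made here). With the replicate number as a block the exact permutation p was 0.0417, the smallest that this version can give. Per library, 73 and 74 merged regions held an induced peak and 3 and 0 an uninduced peak, a difference of 72.0 regions between the means, with a two-sided exact permutation p of 0.33, the smallest that 2 libraries against 2 can give. The induced peaks here were not among the strongest of their libraries. With the 10253 strongest peaks of each library, 1 shared induced region was left (at PCDHAC1), the difference between induced and uninduced libraries was 0, and F over the 4 proteins was 0.43 (exact permutation p = 0.79). With peaks above their library's median fold, the difference between induced and uninduced libraries was 46.0 regions.

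Shared regions of induced FLAG-RCOR2 lay within 2 kb of the start of 44 of the 53 protocadherin genes (83.0%), against 69.7% of the 15813 protein-coding genes whose strand is known. The 44 genes held 47 distinct regions. None of the 53 starts had a shared region of RCOR1, RCOR3, LSD1 or uninduced FLAG, where 29.6%, 10.2%, 3.25% and 5.57% of all starts had one. Taken alone, RCOR1 replicate 1 had a peak at 4 starts (PCDHAC1, PCDHAC2, PCDHB2 and PCDHGB7) and uninduced replicate 1 at 3 (PCDHA3, PCDHB8 and PCDHGA10). Their replicates, both RCOR3 and both LSD1 libraries had no peak at any start. A gene without a called peak is not shown to be unbound, since the lists hold peaks past the caller's threshold alone.

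The induced peaks did not lie where such peaks lie at most genes. Among the 44 bound protocadherin genes the median position of the strongest summit was 2024 bp after the gene start in replicate 1 and 1924 bp in replicate 2. For all bound protein-coding genes it was 70 and 8 bp after the start. The strongest summit lay 1500 bp or more after the start in 40 of 44 protocadherin genes in each replicate (90.9%), against 4.43% and 4.13% of 10914 bound genes. It did so in both libraries for 39 genes. These genes were counted because peaks of both libraries overlapped, so the nearness of the 2 summits (a median of 232 bp apart) is in part set by that choice and is no measure of how well the position recurred.

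**Figure D2:**
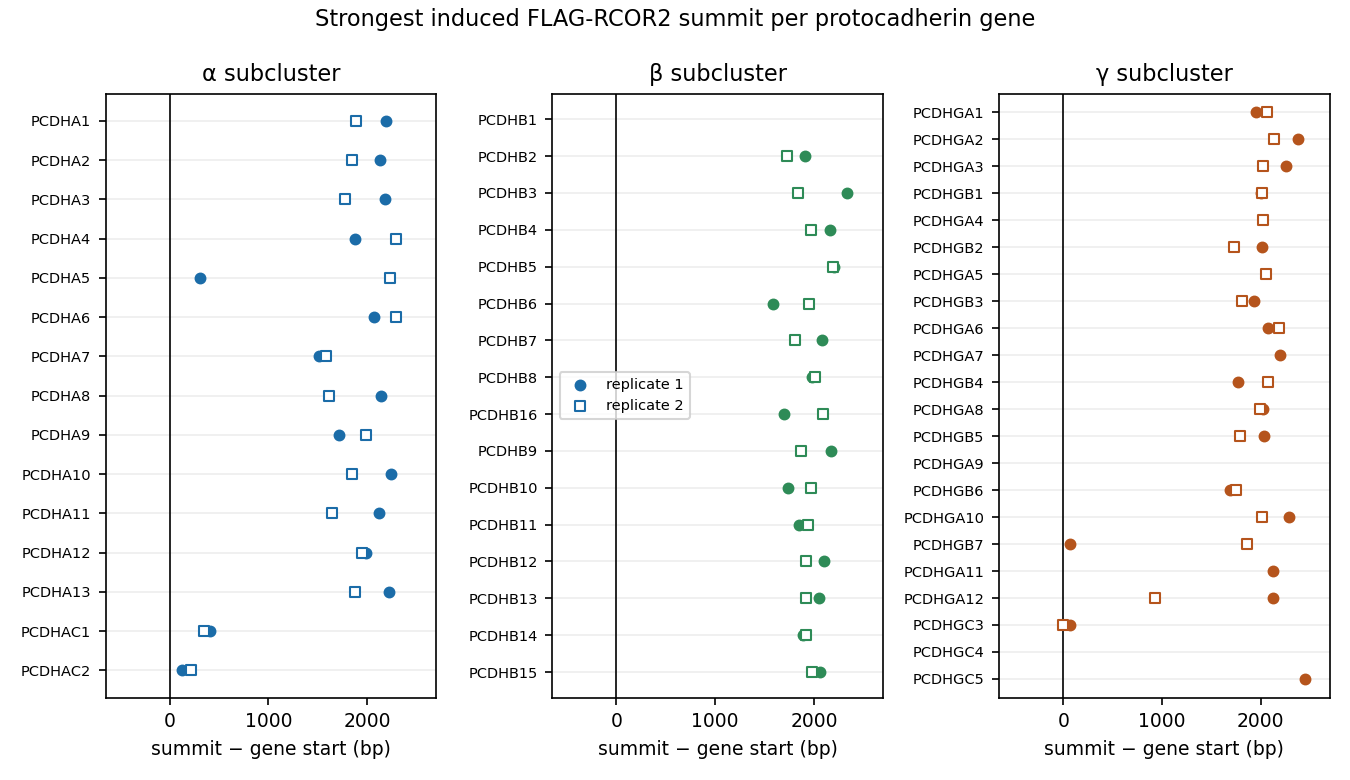
Position of the strongest induced FLAG-RCOR2 summit between 500 bp before and 2500 bp after each gene start, in bp, for replicate 1 (filled circles) and replicate 2 (open squares). Most summits sit near 2000 bp after the start in all 3 subclusters, while those of PCDHAC1, PCDHAC2 and PCDHGC3 sit between 4 bp before and 409 bp after it.

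Variable exons were taken as the first 2500 bp from a gene start, because no exon annotation was used. In the later part, from 1500 to 2500 bp, a shared induced region was found in 41 of 53 protocadherin genes (77.4%), against 10.1% of all genes. Over the promoter, from 250 bp before to 50 bp after the start, it was found in 4 of 53 (7.55%), against 61.9% of all genes. Both windows were chosen after the summits had been seen, and the shares are given as a description without a test. The other groups had no shared region of either kind at the protocadherins. Among all genes they had one over 25.1% of promoters for RCOR1, 7.54% for RCOR3, 1.33% for LSD1 and 3.93% for uninduced FLAG. In the later part the shares of all genes were 2.42%, 0.645%, 0.455% and 0.247% in the same order of groups.

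**Figure D3:**
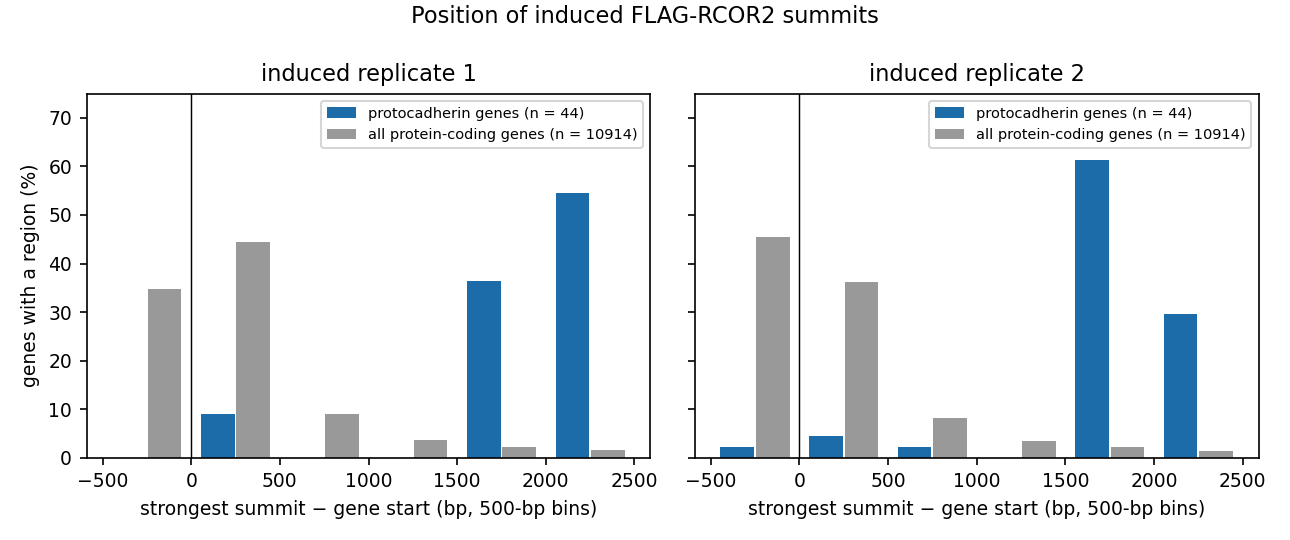
Share of genes with a shared induced region (%) by the position of the strongest summit in 500-bp bins, for protocadherin genes (blue, n = 44) and all protein-coding genes of known strand (grey, n = 10914). In replicate 1, 36.4% and 54.5% of protocadherin genes fall in the bins that begin at 1500 and 2000 bp, against 2.22% and 1.56% of all genes.

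**Figure D4:**
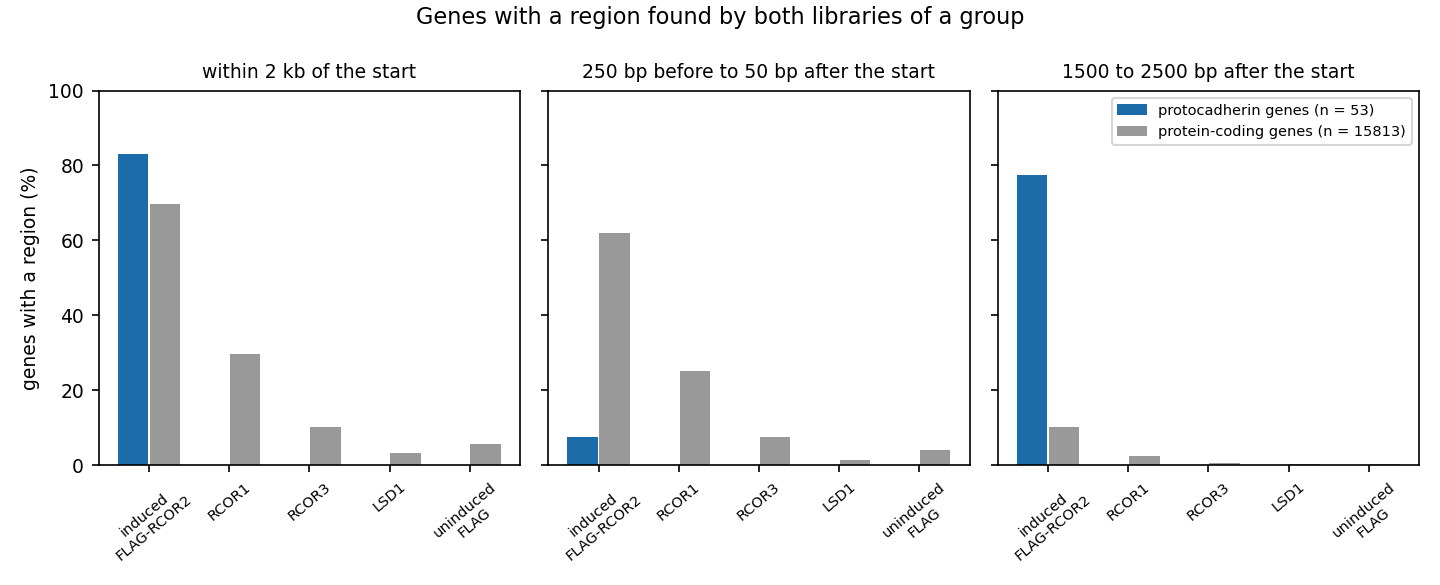
Genes with a region found by both libraries of a group (%), for 53 protocadherin genes (blue) and 15813 protein-coding genes (grey), in 3 windows around the start. Blue bars are seen for induced FLAG-RCOR2 at 83.0%, 7.55% and 77.4%, and are at 0 for the other 4 groups.

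Enrichment at the bound protocadherin genes was below that at all bound genes, but the peaks compared differ in position. In each replicate 90.9% of the protocadherin summits lay 1500 bp or more after the start. Of all bound genes, 79.1% (replicate 1) and 81.5% (replicate 2) had the summit within 500 bp of the start. Peaks at like positions were not compared. The fold enrichment of a peak is the authors' ratio over local background, and it is compared here within a library. At the 44 bound protocadherin genes its median was 7.06 in replicate 1 and 9.04 in replicate 2, against 13.3 and 24.5 at all bound starts. In percentile ranks among the peaks of the same library, the medians were 66.2 and 64.8 for the protocadherins, against 87.8 and 86.4. Values came in steps, since 39 of 76 window peaks in replicate 1 and 48 of 76 in replicate 2 were whole multiples of 0.553 and 0.532 (within 0.01 of a step). Small differences between genes are therefore not resolved.

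**Figure D5:**
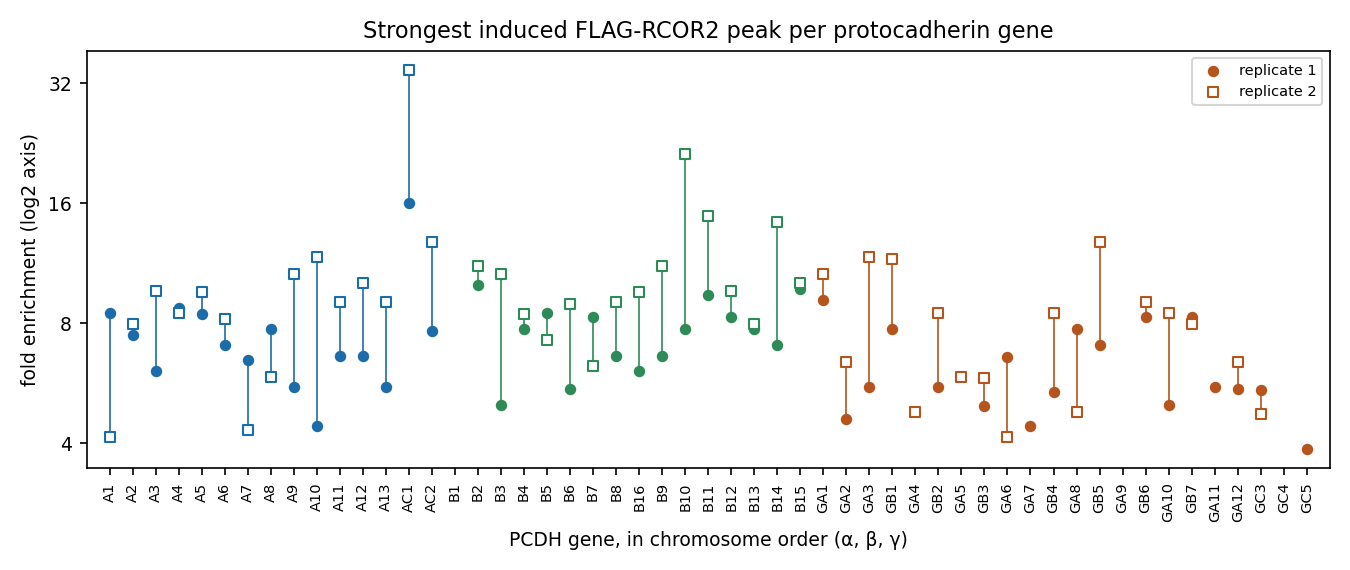
Fold enrichment (log2 axis) of the strongest induced FLAG-RCOR2 peak per protocadherin gene in chromosome order, replicate 1 as filled circles and replicate 2 as open squares joined by a line. PCDHAC1 stands highest with 16.04 and 34.6, and genes without a symbol had no peak from 500 bp before to 2500 bp after the start.

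All 13 α genes with randomly chosen promoters (PCDHA1 to PCDHA13) had a shared region in the later part of the variable exon. Their fold enrichment lay between 4.43 and 8.72 in replicate 1 and between 4.15 and 11.7 in replicate 2. PCDHA4 had 8.72 and 8.51 (percentiles 76.4 and 62.5), with summits 1874 and 2296 bp after the start. PCDHA10 had 4.43 and 11.7 at 2237 and 1851 bp, and PCDHA1 had 8.48 and 4.15 at 2191 and 1887 bp, so the 2 libraries ordered these genes differently. An induced peak also lay in the first 500 bp of 8 of these α genes in at least 1 library. The share of all genes with such a peak was not counted. PCDHA2 and PCDHA8 had a shared region there, with 7.06 and 5.27 at PCDHA2 and 5.05 and 5.18 at PCDHA8. At PCDHA5 the early peak, 310 bp after the start with a fold of 8.46, was the strongest of replicate 1, and that of replicate 2 (9.57) lay at 2227 bp.

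Of the 16 β genes, 15 had a shared region in the later part, and PCDHB1 had no peak. The fold enrichment of the 15 lay between 4.98 and 9.96 in replicate 1 and between 6.25 and 21.3 in replicate 2. PCDHB10 had 7.75 and 21.3, at 1742 and 1972 bp after the start, the second value being the highest of any gene outside the C-type. PCDHB11 had 9.40 and 14.9 at 1852 and 1936 bp, PCDHB14 had 7.06 and 14.4 at 1887 and 1925 bp, and PCDHB2 had 9.96 and 11.2 at 1907 and 1732 bp. These genes ranked above the median peak of both libraries, with percentiles between 66.2 and 84.2. PCDHB15 had 9.77 and 10.1 (percentiles 80.2 and 68.8), and PCDHB12 had 8.30 and 9.62 (percentiles 74.8 and 67.6). In the first 500 bp, 1 β gene had an induced peak (PCDHB7, in replicate 1), and no share of all genes was counted here either. Variable exons within a subcluster resemble each other in sequence, and the sources do not state how reads with several matches were treated. The split of signal between neighbouring genes is therefore uncertain, for the β genes as for the α and γ genes.

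Of the 22 γ genes, 14 had a shared region within 2 kb of the start (63.6%), and 13 genes had one in the later part. With peaks of either library in the later part, 19 of the 22 were counted, and no difference between subclusters was tested. The 13 genes outside the C-type had 4.59 to 9.17 in replicate 1 and 4.14 to 12.8 in replicate 2. The 4 highest means of both libraries among these were those of PCDHGA1 (9.17 and 10.6 at 1957 and 2065 bp), PCDHGB1 (7.75 and 11.6 at 1999 and 2015 bp), PCDHGB5 (7.06 and 12.8 at 2029 and 1794 bp) and PCDHGB6 (8.30 and 9.04 at 1693 and 1746 bp). PCDHGA6 (6.58 and 4.14), PCDHGB3 (4.96 and 5.84) and PCDHGA2 (4.59 and 6.38) were at the low end.

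Together 9 protocadherin genes had no shared region at the start. PCDHB1, PCDHGA9 and PCDHGC4 had no induced peak from 500 bp before to 2500 bp after the start. PCDHGA4 (4.79) and PCDHGA5 (5.85) had a peak in replicate 2, and PCDHGA7 (4.43), PCDHGA11 (5.53) and PCDHGC5 (3.87) in replicate 1. All 5 of these peaks had their summits in the later part of the exon. PCDHGB7 had peaks in both libraries (8.30 and 7.97) that did not overlap, 68 and 1859 bp after the start. With peaks of either library, 48 of the 53 starts were counted.

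Of the 5 C-type genes, 3 had their shared region at the start, and PCDHGC4 had no peak. The single peak of PCDHGC5 (3.87, in replicate 1 alone) lay 2450 bp after the start. This was further than in any bound gene of that library, where summits past 1500 bp lay at 1515 to 2378 bp. PCDHAC1, the first C-type gene of the α subcluster, had the strongest peak of all 53 genes, with a fold of 16.04 and 34.6 (percentiles 91.3 and 91.5) and summits 409 and 344 bp after the start. PCDHAC2 had 7.67 and 12.8 at 126 and 220 bp after the start. PCDHGC3 had 5.45 at 74 bp after the start and 4.74 at 4 bp before it. All 3 regions covered the promoter, none of the 5 C-type genes had a shared region in the later part, and PCDHGB5 was the fourth gene with a shared region over the promoter (6.09 and 6.25), beside its later one. RCOR1 replicate 1 had a peak in the same merged regions at PCDHAC1 (4.21) and PCDHAC2 (3.14), and RCOR1 replicate 2 had none.

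Promoter sequences from RefSeq (GRCh38.p14, forward strand) were matched for 47 of the 53 genes. PCDHA3, PCDHA13, PCDHB6, PCDHB11, PCDHGA12 and PCDHGC5 were not matched. The 4 promoters with a shared induced region are shown first, because they are the exceptions to the position in the exon. The strongest gene of each subcluster without such a region follows (highest mean fold, summits in the later part in both libraries). Capitals mark every CGCT on the forward strand, the letters at the core of the conserved sequence element that protocadherin promoters are known for. A capital marks these letters alone and does not show the element, since 81.2% of all promoters held them on either strand.
PCDHAC1, chr5:140926049-140926348: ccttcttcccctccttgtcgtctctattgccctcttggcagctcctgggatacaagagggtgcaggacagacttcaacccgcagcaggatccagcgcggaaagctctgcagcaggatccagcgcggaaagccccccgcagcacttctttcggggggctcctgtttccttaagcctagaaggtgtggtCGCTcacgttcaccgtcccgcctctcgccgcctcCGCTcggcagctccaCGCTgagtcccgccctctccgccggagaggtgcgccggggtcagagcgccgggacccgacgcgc
PCDHAC2, chr5:140966226-140966525: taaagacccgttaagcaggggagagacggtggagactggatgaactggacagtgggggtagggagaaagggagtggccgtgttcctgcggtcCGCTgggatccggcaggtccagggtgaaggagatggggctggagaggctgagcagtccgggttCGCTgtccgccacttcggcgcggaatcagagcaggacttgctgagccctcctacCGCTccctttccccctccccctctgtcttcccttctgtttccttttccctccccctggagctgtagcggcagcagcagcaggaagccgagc
PCDHGC3, chr5:141475716-141476015: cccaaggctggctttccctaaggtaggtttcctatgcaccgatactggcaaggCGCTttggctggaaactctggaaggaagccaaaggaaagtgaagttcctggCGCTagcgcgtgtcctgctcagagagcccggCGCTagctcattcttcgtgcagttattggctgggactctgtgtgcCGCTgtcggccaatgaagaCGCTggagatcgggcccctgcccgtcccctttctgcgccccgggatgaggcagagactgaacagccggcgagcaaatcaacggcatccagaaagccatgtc
PCDHGB5, chr5:141397697-141397996: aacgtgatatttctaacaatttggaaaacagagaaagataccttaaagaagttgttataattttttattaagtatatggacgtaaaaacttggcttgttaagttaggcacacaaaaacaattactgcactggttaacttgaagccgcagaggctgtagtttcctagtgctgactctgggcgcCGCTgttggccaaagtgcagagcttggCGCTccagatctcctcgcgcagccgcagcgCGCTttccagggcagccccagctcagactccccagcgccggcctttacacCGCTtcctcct
PCDHA4, chr5:140806818-140807117: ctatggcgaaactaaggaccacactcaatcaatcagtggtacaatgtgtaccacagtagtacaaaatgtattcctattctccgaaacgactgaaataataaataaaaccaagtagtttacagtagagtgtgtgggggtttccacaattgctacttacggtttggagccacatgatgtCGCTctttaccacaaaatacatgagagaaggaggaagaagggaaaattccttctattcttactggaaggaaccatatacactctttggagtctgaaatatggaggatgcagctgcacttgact
PCDHB10, chr5:141192103-141192402: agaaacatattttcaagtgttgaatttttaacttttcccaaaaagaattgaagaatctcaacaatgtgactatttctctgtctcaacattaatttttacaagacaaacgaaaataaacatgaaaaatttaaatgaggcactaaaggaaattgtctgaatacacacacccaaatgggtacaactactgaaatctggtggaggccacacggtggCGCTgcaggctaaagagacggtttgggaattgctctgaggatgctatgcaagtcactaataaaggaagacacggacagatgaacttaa
PCDHGA1, chr5:141330264-141330563: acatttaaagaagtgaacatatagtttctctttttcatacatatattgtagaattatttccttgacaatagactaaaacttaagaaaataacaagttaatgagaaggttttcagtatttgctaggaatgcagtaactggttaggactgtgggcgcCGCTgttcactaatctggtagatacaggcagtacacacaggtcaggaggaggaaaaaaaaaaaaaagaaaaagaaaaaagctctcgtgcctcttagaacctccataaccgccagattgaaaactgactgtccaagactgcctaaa

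Base composition is given as a description, without a test. The 4 promoters with a region over them had a median G+C content of 61.0% (48.3% at PCDHGB5 to 66.0% at PCDHAC1), the 43 without one 38.7% and all 15813 promoters 62.7%. PCDHGC4, with 60.7% G+C, had no induced peak. CGCT on either strand was present in 46 of 47 protocadherin promoters (97.9%), against 81.2% of all promoters, and PCDHA9 lacked it. On the forward strand it began 100 to 30 bp before the start in 43 of 47 (91.5%), against 27.3% of all, a span chosen after the positions were seen. AGGNGGC, a core of the CTCF motif, was found on either strand in 4 of 47 (8.51%), against 42.1% of all promoters. TCAGCAC and GGACAG, letters from the left and right parts of the REST element, were in 3 and 6 of 47 (6.38% and 12.8%), against 4.12% and 21.2%. TATAA was in 17 of 47 (36.2%), against 16.7%. These are matches of letters in 300 bp, and a promoter without the exact letters is not shown to lack a CTCF or REST site. The 47 promoters had a median G+C content of 39.7%, against 62.7% for all. The shares were not compared at like composition. The later part of the variable exons, where most peaks lay, is not covered by these sequences.

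The RCOR1, RCOR3 and LSD1 peaks lay for the most part beyond the variable exons. They fell in 16 of the 91 merged regions, and 12 of these also held an induced peak. The induced lists were the longest (75643 and 59726 peaks), and the share of such regions with an induced peak genome-wide was not counted. The 12 therefore describe this window alone. Of the 16, 4 touched a variable exon (those at PCDHAC1, PCDHAC2, PCDHB2 and PCDHGB7, from RCOR1 replicate 1). All 3 shared LSD1 regions and the shared RCOR3 region lay in the 50 kb after the γ subcluster, inside DIAPH1, a formin gene that runs towards the cluster from its far side. At chr5:141560629-141561247 the RCOR1 libraries had a fold of 8.72 and 5.25, the RCOR3 libraries 5.52 and 4.48, and the LSD1 libraries 11.4 and 4.24. There induced replicate 2 alone had a peak (12.2). At chr5:141557569-141558161 it was 8.85 and 4.79 for induced FLAG-RCOR2, 8.05 and 5.78 for RCOR1 and 8.72 and 6.58 for LSD1, with RCOR3 in replicate 2 alone (5.22). At chr5:141524650-141525661 it was 4.43 and 6.91 for induced FLAG-RCOR2, 9.01 and 4.73 for RCOR1 and 6.90 and 6.46 for LSD1, with RCOR3 in replicate 1 alone (4.84). No uninduced library had a peak at these 3 regions.

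Between the subclusters and at the constant exons the overlap was thinner. The fourth shared RCOR1 region lay at the start of TAF7, a subunit of the general transcription factor TFIID, between the β and γ genes (chr5:141320179-141321037), with 6.34 and 12.8 for induced FLAG-RCOR2, 6.71 and 3.68 for RCOR1 and 2.97 in LSD1 replicate 1. Between the α constant exons and PCDHB1, the interval that also holds the α enhancer HS5-1, RCOR1 replicates 1 and 2 had neighbouring peaks that merged through a peak of induced replicate 2 (chr5:141040977-141041445, 5.37 and 5.25 for RCOR1 and 4.25 for induced FLAG-RCOR2). RCOR1 replicate 1 and LSD1 replicate 1 had overlapping weak peaks just before it (3.57 and 3.27). In the γ constant part, 3 shared induced regions were found. That at chr5:141508695-141509218 had 9.77 and 7.22 for induced FLAG-RCOR2, 4.11 and 4.45 for RCOR3 and 6.56 in RCOR1 replicate 1. The α constant part had no shared region of any group, with peaks in RCOR1 replicate 1 (6.26 and 4.70) and induced replicate 1 (4.96 and 5.43).

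The submitters' lists of RCOR2-high and RCOR2-low regions held few of these sites. Of 6673 RCOR2-high regions 1 lay in the window, at PCDHAC1, and of 24637 RCOR2-low regions 9 did. Among the 60 shared induced regions of the window, 1 overlapped an RCOR2-high and 7 an RCOR2-low region, whereas 18.9% and 23.1% of all 35870 shared induced regions did. Within the variable exons the RCOR2-low list held the promoter region of PCDHGB5, and no region in the later part of an exon was in either list. The sources do not state how the lists were made.

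Other cadherin genes and genes listed as regulators of the clusters were looked up in the same way, with either end taken for genes of unknown strand. Counted in this way, 68.8% of all protein-coding genes had a shared region of induced FLAG-RCOR2, 28.6% of RCOR1, 9.74% of RCOR3, 3.23% of LSD1 and 5.49% of uninduced FLAG. Of 12 protocadherins outside the clusters, 7 had a shared induced region and 4 a shared RCOR1 region, as did PCDH9 (18.3 and 44.1 for induced FLAG-RCOR2, 8.39 and 5.25 for RCOR1) and PCDH7 (12.7 and 29.2, 6.37 and 4.20). Of 20 classical cadherins, 13 had induced FLAG-RCOR2, 3 RCOR1 and 2 LSD1. CDH11, a mesenchymal cadherin, had 32.6 and 49.4 for induced FLAG-RCOR2 and 8.05 and 5.25 for RCOR1. Of 12 large cadherins of the FAT, DCHS, CELSR and CDHR families, 10 had induced FLAG-RCOR2, 4 RCOR1 and 1 RCOR3, the last at CELSR3 (5.08 and 8.18). All 26 genes listed as regulators of the clusters, such as SMC3 of cohesin (21.6 and 29.2), had induced FLAG-RCOR2. The list also holds RCOR1, RCOR2, RCOR3, KDM1A and REST, and an effect of its members on the clusters was not tested. RCOR2 had a shared uninduced FLAG region too. In this list 13 genes had RCOR1, 5 RCOR3, 1 LSD1 and 5 uninduced FLAG. The gene with LSD1 was SMC3 (7.62 and 3.42). Of 13 neighbours of the clusters found in the table, 12 had induced FLAG-RCOR2, 7 RCOR1, 1 RCOR3 and 0 LSD1. The start of DIAPH1, which lies beyond the window, had 26.4 and 72.2 for induced FLAG-RCOR2, 9.14 and 4.60 for RCOR1 and 5.28 and 5.91 for RCOR3, far above the fold at the protocadherins.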

How the data were processed

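The submitters' processing notes name BWA 0.7.17, MACS2, deepTools and the build GRCh38. The control library, any filters, and the handling of duplicate and multiply mapped reads are not stated in the sources. Each deposited list gives per peak the authors' fold ratio, −log10 p-value, −log10 q-value and summit offset. The lists hold no read counts, so depth is unknown. On chromosomes 1 to 22 and X they held 75643 and 59726 peaks (induced FLAG-RCOR2), 49250 and 18297 (RCOR1), and 13644 and 27786 (RCOR3). For LSD1 they held 19392 and 19667 there, and for uninduced FLAG 10253 and 14958. The authors deposited 1 peak list per library. Replicates follow the labels, although peak names in several lists carry other replicate names.

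Peaks on chromosomes 1 to 22 and X were merged over all lists or, for shared regions, over both libraries of a group, with at least 1 bp of overlap. Genes and promoters came from RefSeq (GRCh38.p14); 6 protocadherin genes had no strand in the table and were taken at their lower coordinate, as on the forward strand of the others. The members and gene lists were chosen with earlier results of these data known. By rule, up to 12 genes or regions were named, ranked by the number of groups with a shared region and then by the lower induced percentile, with up to 3 from each other list. PCDHA1, PCDHA2, PCDHA4, PCDHA8, PCDHA10, PCDHGA2, PCDHGA6, PCDHGB3, PCDHGB6 and PCDHGC3 were chosen after their values were seen. Exact permutation tests and the overlap steps were tested on simulated data (Python 3.11.15, numpy 2.4.6, pandas 2.3.3; figures in matplotlib 3.10.9).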

Additional observations from a re-analysis of the deposited data

How the results depend on the processing

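Shared induced regions in the window (60) numbered 1 with the 10253 strongest peaks per library and 31 with peaks above their library's median fold, and single libraries gave 76 and 76. Bound starts for induced FLAG-RCOR2 (44) numbered 1 and 25 under the same choices, 6 within 500 bp of the start and 4 from 250 bp before to 50 bp after it (a window chosen after seeing the data), and 42 to 48 in single libraries. RCOR1 regions (4) numbered 2 with the strongest peaks, 1 above the median fold, 1 with 50% reciprocal overlap, 1 without the flanks, 18 with either library and 5 to 17 in single libraries; RCOR1 starts (0) numbered 4 with either library and 0 to 4 in single ones. RCOR3 regions (1) numbered 0 with the strongest peaks, 0 with −log10 q of at least 3, 0 above the median fold, 0 without the flanks, 2 with peaks set to 500 bp, 7 with either library and 4 to 4 in single libraries. LSD1 regions (3) numbered 0 without the flanks, 6 with either library and 3 to 6 in single libraries. Uninduced regions and starts (0 and 0) numbered 3 and 3 with either library and 0 to 3 in single libraries. The difference of 72.0 regions between induced and uninduced libraries was 0 with the strongest peaks (exact permutation p = 1.0), 46.0 with peaks above the median fold and 70.5 to 73.5 without 1 library. The F value of the window share (25.6) was 0.43 with the strongest peaks (exact permutation p = 0.79), 13.2 above the median fold and 18.5 with −log10 q of at least 3 (exact permutation p = 0.105 for both). With the replicate block, in which the F stays 25.57, the exact permutation p was 0.0417; without 1 library F was 19.0 to 34.6. The labels do not say that a replicate number marks a shared batch, so the block is a hint at most. For induced against uninduced libraries the block gave an exact permutation p of 0.5. This is the smallest p that this version can give, so it cannot decide for or against a difference. The cause of these shifts was not tested. Of 135 values under alternatives, 104 were labelled as unchanged. For counts this meant equal to the main value or within a set ratio of it, and many were 0 in both. Shared induced regions were so labelled at 48 (50% reciprocal overlap) and 87 (either library) beside 60. Bound starts for induced FLAG-RCOR2 were so labelled at 35 (50% reciprocal overlap) beside 44. For the difference between libraries it meant the same sign, and for F the same side of a permutation p of 0.05. The number of peaks called limits all counts, and the treatment of reads matching several variable exons was not tested.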

Other observations

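The pseudogenes that lie among the protocadherin genes were looked up in the same way, as values outside the comparisons above. None of the 6 had a strand in the table, so the start here is the lower coordinate. Of 6, 5 had a shared induced FLAG-RCOR2 region within 2 kb of it. Among the 15813 protein-coding genes whose strand is known, 69.7% had one within 2 kb of the start, and no difference was tested. PCDHA14 had a fold of 4.48 and 6.10 in the 2 libraries, with summits 2031 and 1991 bp after the start. PCDHB17P had 7.75 and 10.6 at 2070 and 1949 bp, and PCDHB18P had 4.31 and 8.28 at 2080 and 2071 bp. Their summits lay as far after the start as those of most coding members. PCDHB19P had 6.58 and 7.39 at 1722 and 1369 bp, and PCDHGB9P had 4.98 and 6.38 at 1615 and 1656 bp. PCDHGB8P had a peak in replicate 2 alone (6.91). RCOR1, RCOR3, LSD1 and uninduced FLAG had no shared region at any of the 6.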
